A study of Mus musculus with 2 samples.

Results

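The genes described here are Arc, the 4 members of the Egr family (Egr1, Egr2, Egr3 and Egr4) and Nr4a1, chosen by their symbols in the gene list of the matrices. They are 6 of 32285 genes. Their transcripts were counted in 2 coronal brain sections at the level of the dorsal hippocampus by Visium spatial transcriptomics, in which each spot of a slide tags the RNA that reaches it from the tissue above and each original molecule is counted once by its unique molecular identifier (UMI). By its label, the section labelled trained came from 1 male mouse that had learned to avoid a shock zone on a rotating arena (active place avoidance). The section labelled untrained came, by its label, from 1 male mouse that walked on the same arena with the shock always off. Both mice were 3 to 4 months old, were on a C57BL/6 background and carried ArcCreERT2::eYFPflx, in which the Arc promoter drives a tamoxifen-dependent Cre and Cre switches on a yellow fluorescent protein. Both had a retention test with the shock off, and the brains were frozen 60 min after it and cut at 10 µm. The matrices hold no row for the Cre or the reporter, and whether transgene transcripts add to the Arc counts was not tested.

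With 1 section of 1 mouse per label there is no replicate check of any difference between the sections, and no p-value is given. Spots of one section are parts of one sample. All intervals below are 95% intervals that cover counting error only, and where a count is 0 its limit is given as 3 counts in place of the upper end of the interval. No gene in the matrices checks which section is which. The deposited labels and the study's account of its mice may not name the sections the same way. The study reports Arc and Egr1 in a larger share of hippocampal spots in its trained mouse. In the matrices the larger shares, given below, are in the section labelled untrained, which also has more UMIs per spot. The study's set of hippocampal spots was not the one used here. Whether the 2 labels were exchanged could not be settled here, and an exchange would turn every direction given between the sections, all of which are as labelled. The trained section had 4152 spots and 29515831 UMIs, and the untrained section had 3738 spots and 59029131 UMIs. The median spot held 5950.5 and 13766.5 UMIs, so levels are given as counts per 1000000 UMIs (CPM), and where 2 values stand together the trained section comes first. A spot is a small piece of tissue that can hold several cells, and fewer cells of a type and less RNA per cell cannot be told apart. The sections also held different tissue, with 226 striatum-like spots against 26. They share 3448 spot barcodes, which mark the same positions on the spot grid under each section.

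All 6 genes are immediate early genes, which are transcribed within minutes of strong synaptic input without new protein synthesis. In neurons, calcium entry acts through the kinase ERK and the factors SRF and CREB bound at their promoters. Arc encodes a protein of dendrites and synapses that promotes the removal of AMPA receptors from the synapse, and its messenger RNA travels into dendrites. The Egr genes encode zinc finger transcription factors that recognise a GC-rich site, and Nr4a1 encodes an orphan nuclear receptor. In the forebrain Egr1 has a high resting level that follows ongoing activity, Egr2 is better known in Schwann cells and the developing hindbrain, and Egr3 acts in part downstream of Egr1.

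In the mm10 annotation Arc lies on chromosome 15 at 74669083 to 74672570 on the minus strand with 3 exons. Egr1 lies on the plus strand with 2 exons. Egr2 lies on chromosome 10 at 67535475 to 67542188 on the plus strand, Egr3 on chromosome 14 at 70077203 to 70082614 on the plus strand and Egr4 on chromosome 6 at 85511121 to 85513589 on the minus strand, each with 2 exons. Nr4a1 lies on chromosome 15 at 101254269 to 101274795 on the plus strand with 8 exons. No annotated gene overlaps any of them on either strand, so their UMIs are not shared with a neighbour.

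The RefSeq promoter table (GRCm38.p6) gave starts for 3 of the 6 genes, Egr2, Egr4 and Nr4a1. They are shown because the genes shared a regional pattern in both sections and because SRF and CREB have known letters to look for. The letters searched on both strands were CGTCA, the core of the CREB site (its reverse is TGACG), the CArG box bound by SRF and GCGGGGGCG, the site of the Egr proteins. The full palindrome TGACGTCA, which contains CGTCA, was searched as well and was in none of the windows. Capitals mark CGTCA matches and the CArG box in the 250 bases before the first base of the transcript, read 5′ to 3′ on the strand of the gene. Egr4 is at chr6:85513590-85513839 on the minus strand and Nr4a1 at chr15:101266596-101266845 on the plus strand. The Nr4a1 window lies before a start inside the gene, within an intron of the longer transcript. Of the Egr2 promoter the 22 bases with a CArG box and a CGTCA, at chr10:67537797-67537818 on the plus strand, are given.
Egr2: CCATATATGGgcagcgaCGTCA
Egr4: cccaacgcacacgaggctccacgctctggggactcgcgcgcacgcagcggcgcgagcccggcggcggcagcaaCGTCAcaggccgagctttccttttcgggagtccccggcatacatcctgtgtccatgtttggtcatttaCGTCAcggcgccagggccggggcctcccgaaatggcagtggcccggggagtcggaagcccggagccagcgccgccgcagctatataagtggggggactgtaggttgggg
Nr4a1: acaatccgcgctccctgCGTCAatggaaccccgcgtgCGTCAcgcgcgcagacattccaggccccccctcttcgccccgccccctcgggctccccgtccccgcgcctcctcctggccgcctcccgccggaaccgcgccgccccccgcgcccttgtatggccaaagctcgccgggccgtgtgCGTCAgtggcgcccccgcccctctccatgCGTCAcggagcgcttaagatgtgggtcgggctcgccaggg
The table lists 5 starts of Egr2, and the site shown lies before 3 of them. Its CArG box began 72 bases before the start at 67537869. The window of the start at 67535499 held none of the motifs, and that of the start at 67537566 held another CArG box and no CGTCA. The Egr4 window held 2 CGTCA matches, the nearest 109 bases before the start, and no CArG box. The Nr4a1 window held 4, the nearest 40 bases before the start, and 1 GCGGGGGCG at 60 bases. Among 32851 promoters of the same length 17.8% held at least 1 CGTCA, 3.90% at least 2 and 0.688% at least 3. The CArG box was found in 1.47% and GCGGGGGCG in 2.57%, and TGACGTCA in 1.55%. A match is a run of letters and was not tested as a binding site.

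Over the whole sections, Egr1 was counted at 150 CPM (145 to 154; 4414 UMIs) in the trained section and at 133 (130 to 136; 7871 UMIs) in the untrained section. Arc was at 74.6 (71.5 to 77.8; 2201 UMIs) and 67.6 (65.5 to 69.8; 3992 UMIs). Egr3 was at 55.3 and 57.1, Nr4a1 at 47.0 and 53.4, and Egr4 at 21.7 and 23.6. Egr2 was sparse, with 172 UMIs in the trained and 237 in the untrained section, or 5.83 and 4.01 CPM. Levels are not compared between genes here, since capture differs between transcripts. The highest count in 1 spot was 22 and 44 for Egr1, 15 and 33 for Arc, and 4 and 7 for Egr2.

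The counts were not spread evenly. Moran's I, a deposited score that is near 0 for a scattered gene and near 1 for a gene whose neighbouring spots carry like values, was 0.307 and 0.491 for Arc, which ranked 222 and 35 among the genes of its section. Egr1 scored 0.406 and 0.520 and ranked 60 and 19. Egr3 scored 0.261 and 0.379, Nr4a1 0.178 and 0.376, and Egr4 0.122 and 0.212. Egr2 had the lowest score of the 6 genes in both sections, 0.0455 and 0.0835. The score falls with sparse counts and the trained section was shallower, so the 2 scores of a gene are not a comparison between mice.

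**Figure D1:**
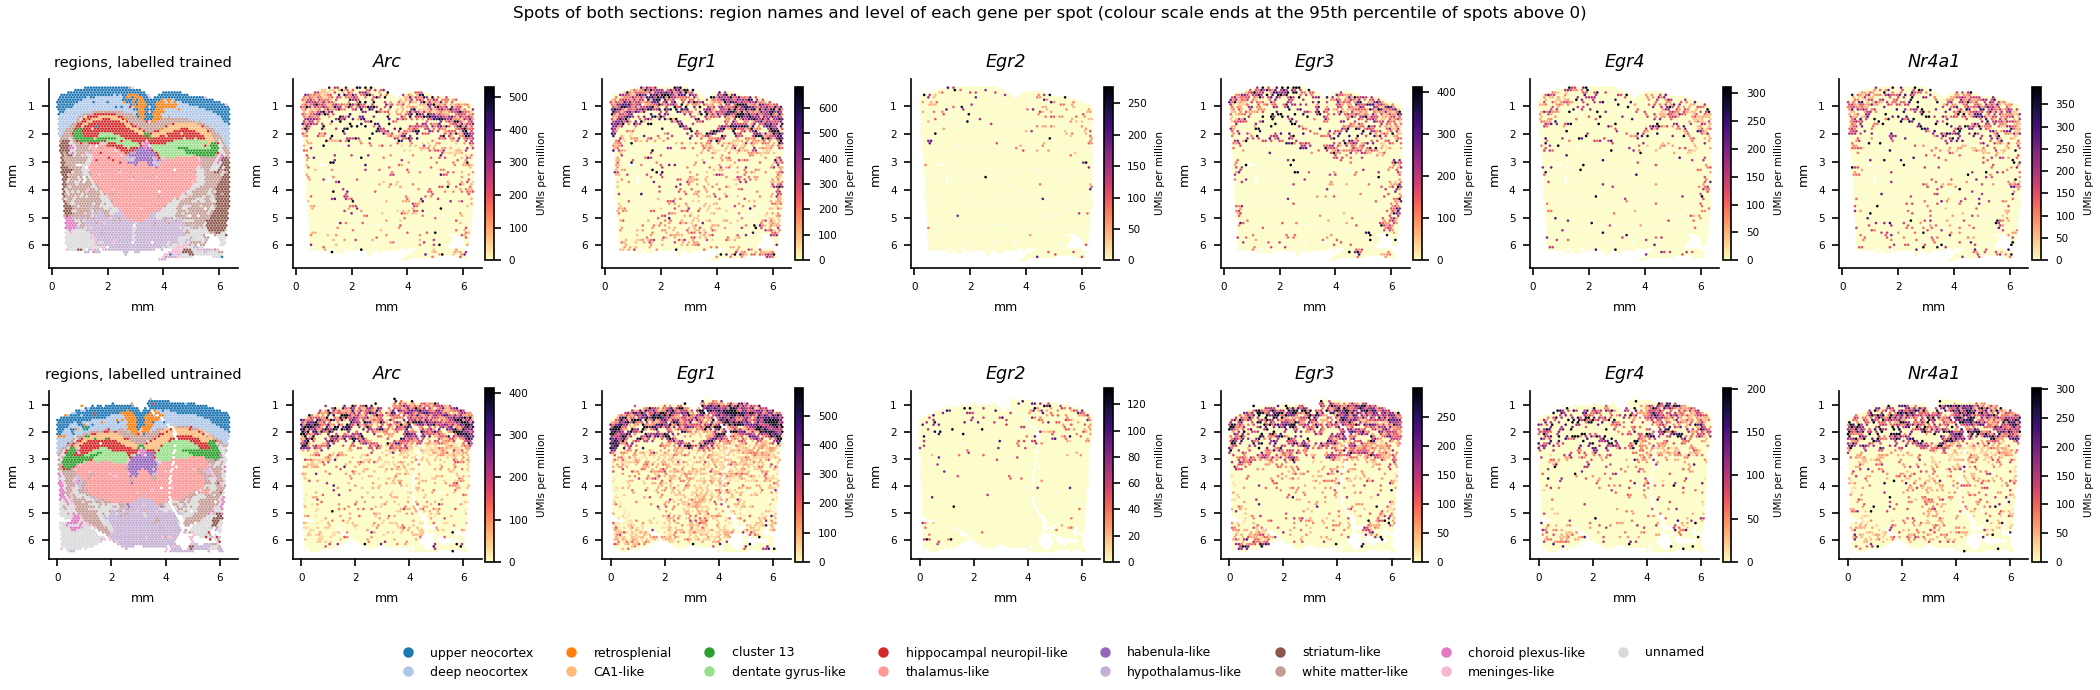
Maps of the spots of both sections, with horizontal and vertical position in mm. The first panel of each section colours the spots by region and the other panels by CPM of 1 gene, and the highest levels follow the cortical band and the CA1 arc, while Egr3 also marks the dentate gyrus.

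Regions were taken from 34 clusters of 7582 spots, made without any of the 6 genes or other activity-regulated genes and named X-like from marker genes. The named regions showed all of their markers above 5 CPM, except that 8 of 9 deep cortical markers passed in the untrained section and 10 of 12 hypothalamic markers in both, with Nr5a1 at 0. The markers are shared between regions, and 3 sets did not sum highest in their own. The neuropil set summed to 3015 and 2801 CPM in neuropil but to 5249 and 5311 in CA1, and was also higher in cluster 13 and the dentate gyrus. The retrosplenial set was higher in the trained habenula (384 against 323), and the deep cortical set in the untrained choroid plexus (521 against 472). A set of 82 and 119 spots in the hippocampus led by Neurod6, Hpca and the CA3 marker Bok scored highest for the CA3 markers but failed the naming rule, and is called cluster 13. In all, 438 and 478 spots stayed unnamed.

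The neocortex held between 48.5% and 67.3% of the transcripts of each gene in each section. Its 710 and 711 spots were 17.1% and 19.02% of the spots and gave 28.5% and 22.3% of all UMIs, but 67.3% and 65.0% of the Arc UMIs and 64.8% and 60.3% of the Egr1 UMIs. For Egr2 the shares were 62.2% and 64.1%, for Nr4a1 58.0% and 56.6%, for Egr4 60.8% and 48.5% and for Egr3 56.2% and 51.2%. Each gene was thus concentrated in the same tissue in both sections, least so Egr3 in the trained and Egr4 in the untrained section.

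Arc was at 176 CPM (167 to 185) in the trained and 197 (189 to 205) in the untrained neocortex, 5.16 and 6.46 times its level in all other spots. Egr1 was at 340 (328 to 353) and 360 (350 to 370), 4.63 and 5.28 times the rest. The ratio was 4.12 and 6.20 for Egr2, 3.22 and 3.66 for Egr3, 3.90 and 3.28 for Egr4 and 3.46 and 4.54 for Nr4a1. All 6 genes were at least 1.5-fold higher in neocortex than in the rest of the section in both, where 8.19% and 6.51% of all genes past 400 UMIs were. Egr2 lay under that minimum in each section, and the other 5 passed it.

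The 50 spots with the highest Arc counts of the trained section were 36 deep cortical, 12 upper cortical and 2 CA1-like spots. In the untrained section they were 19 deep cortical, 23 upper cortical and 8 CA1-like spots. For Egr1 they were 28, 12 and 10 in the trained section and 10, 28 and 12 in the untrained section. None of these lay in thalamus, hypothalamus, striatum or white matter. Egr3 also had 5 and 8 of its top 50 spots in the dentate gyrus. The ranks are of raw UMIs, which deep spots favour, and the median spot held 13074 and 17229 UMIs in deep cortex against 3238 and 6498 in white matter.

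Within the hippocampus the 6 genes parted. In the CA1-like spots (101 and 139), which hold the output neurons of the hippocampus, Egr1 reached 414 CPM (377 to 454) and 349 (327 to 371), as high as in deep cortex, where the intervals overlapped. Nr4a1 was highest of all regions in CA1, at 164 (141 to 190) and 172 (157 to 188). Egr4 was also highest there, at 64.4 (50.2 to 81.3) and 86.0 (75.5 to 97.6), apart from deep cortex only in the untrained section. Arc reached 158 (135 to 184) and 167 (152 to 183), below its deep cortical level of 213 (199 to 227) and 212 (200 to 224). All 6 genes were at least 1.5-fold higher in CA1 than in the rest in both sections, where 13.3% and 9.43% of all genes were.

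The dentate gyrus (141 and 163 spots), the granule cell layer that receives the cortical input, held Egr3 above the rest of the section and Arc, Egr1 and Nr4a1 below it. Egr3 was at 110 CPM (94.2 to 129) and 90.3 (81.3 to 100), 2.11 and 1.65 times the rest of the section. Arc was at 22.4 (15.4 to 31.4) and 28.4 (23.5 to 34.1) there, Egr1 at 55.6 and 52.4 and Nr4a1 at 18.97 and 18.1. Only Egr3 was at least 1.5-fold higher in the dentate gyrus than in the rest (17.0% and 12.2% of all genes). Arc, Egr1 and Nr4a1 were at least 1.5-fold lower in both sections, joined by Egr2 in the untrained section, which makes 3 and 4 of 6 where 16.2% and 14.7% of all genes were lower. Egr4 was 0.76 and 0.97 times the rest, and trained Egr2, from 8 UMIs, 0.98 times.

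Inside the dentate gyrus, cluster 25, with median depths of 13045 and 33208 UMIs and led by Dsp and C1ql2, carried more Egr3 than cluster 16, whose median depths were 7421 and 17159. The levels were 130 (107 to 157) against 82.9 (61.7 to 109) in the trained section and 113 (99.6 to 127) against 58.8 (47.8 to 71.6) in the untrained section. Arc ran the other way, at 16.3 (8.89 to 27.3) against 30.9 (18.6 to 48.2) and 16.9 (12.1 to 23.1) against 44.6 (35.1 to 55.9). The intervals were apart for both genes in the untrained section and overlapped in the trained section.

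The CA1-like spots also fell into 2 clusters. Cluster 30, the one richer in UMIs, had Egr1 at 492 (441 to 548) and 468 (433 to 504), and cluster 22 had it at 278 (229 to 335) and 220 (196 to 247). Nr4a1 was likewise higher in cluster 30, at 195 and 214 against 110 and 128. Arc differed less, at 157 (129 to 189) against 161 (124 to 205) in the trained section, where the order was not resolved, and 190 (168 to 214) against 143 (124 to 165) in the untrained section.

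In the hippocampal neuropil-like spots (271 and 164), which hold dendrites and few cell bodies, Arc was at 95.9 (75.7 to 120) and 72.8 (59.8 to 87.8). Egr1 was at 97.1 (76.8 to 121) and 84.2 (70.1 to 100). Cluster 13 had Arc at 78.1 (62.4 to 96.6) and 51.2 (43.8 to 59.5) and Egr1 at 103 (84.7 to 124) and 90.9 (80.9 to 102). Over the whole hippocampus only Egr3 was 1.5-fold higher than in the rest in the trained section, and Egr3 and Egr4 in the untrained section, against 9.22% and 8.19% of all genes. With each spot weighted equally, 4 genes were higher in the trained hippocampus, a count with no share of all genes at that weighting beside it.

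The striatum-like region (226 and 26 spots) had Egr3 at 86.6 (74.9 to 99.6) and 77.8 (46.1 to 123), a level whose interval overlapped that of the dentate gyrus in both sections. Arc was lower in the trained striatum than in the rest of its section, at 35.3 (28.0 to 44.0), or 0.46 times the rest, and at 21.6 (7.02 to 50.4) from 5 UMIs in the untrained section. Egr1 was at 116 (103 to 131) and 86.4 (52.8 to 133). In the trained section 2 of 6 genes were 1.5-fold higher than in the rest, Egr2 at 8.83 (5.40 to 13.6) and Egr3, where 3.87% of all genes were. The interval of the Egr2 ratio included no change. In the untrained section it was Egr4 alone, from 9 UMIs, and 18.0% of all genes were past the fold with so few spots. Lower by the fold were Arc in the trained section (13.1% of all genes) and Arc, Egr1, Egr2 and Nr4a1 in the untrained section (16.0% of all genes), from 5, 20, 0 and 5 UMIs.

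The thalamus and hypothalamus had little of any of the 6 genes. The thalamus-like spots (717 and 646) fell into clusters led by Prkcd (4 and 9), by Gbx2 and Shox2 (3) and by Ctxn3 and Cbln1 (14). Cluster 14, with 21 and 166 spots, scored highest for the habenular markers. Arc there was at 10.01 CPM (7.27 to 13.4) and 12.4 (10.3 to 14.7), and Egr1 at 40.5 (34.8 to 46.9) and 51.8 (47.5 to 56.5). In the hypothalamus-like spots (468 and 493) Arc was at 8.93 (5.98 to 12.8) and 12.97 (10.4 to 15.97), and Egr1 at 43.1 (36.3 to 50.9) and 53.1 (47.7 to 58.8). The intervals of the 2 regions overlapped for both genes. Egr3 was at 7.05 and 14.6 in thalamus and 5.54 and 10.4 in hypothalamus. All 6 genes were at least 1.5-fold lower than in the rest in both regions and both sections, against 10.6% and 10.8% of all genes in thalamus and 10.6% and 10.4% in hypothalamus.

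White matter, choroid plexus and meninges are tissues of glia, epithelium and membranes, but their spots were not free of neuronal transcripts. The summed level of 4 excitatory neuron markers was between 119 and 254 CPM there, against 1020 and 927 in deep cortex, while that of 6 inhibitory neuron markers was between 1046 and 1695 in the trained and between 284 and 870 in the untrained section, against 1273 and 1358 in deep cortex. In white matter-like spots (639 and 465) Arc was at 29.3 (22.8 to 37.1) and 27.2 (21.9 to 33.4) and Egr1 at 33.6 (26.6 to 41.9) and 37.0 (30.8 to 44.2). In choroid plexus-like spots (34 and 65), which are epithelium, Arc was at 5.82 (0.71 to 21.0) and 8.26 (5.05 to 12.8) and Egr1 at 17.5 (6.41 to 38.0) and 19.4 (14.3 to 25.8). The thalamic and hypothalamic Arc levels had intervals that overlapped those of the choroid plexus in both sections, so they were not resolved from it. In meninges-like spots (80 and 74) Arc was at 16.3 (6.53 to 33.5) and 20.4 (12.4 to 31.4) and Egr1 at 44.1 (26.6 to 68.9) and 34.6 (24.0 to 48.4), and both intervals of Egr1 overlapped those of thalamus and hypothalamus. Egr1 in the untrained thalamus and hypothalamus lay above the choroid plexus, and Arc in white matter lay above that in thalamus in both sections. All 6 genes were 1.5-fold lower in white matter than in the rest, but so were 29.9% and 26.0% of all genes. Egr2 had 0 UMIs in the trained white matter, which allows up to 1.28 CPM with a floor of 3 counts.

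**Figure D2:**
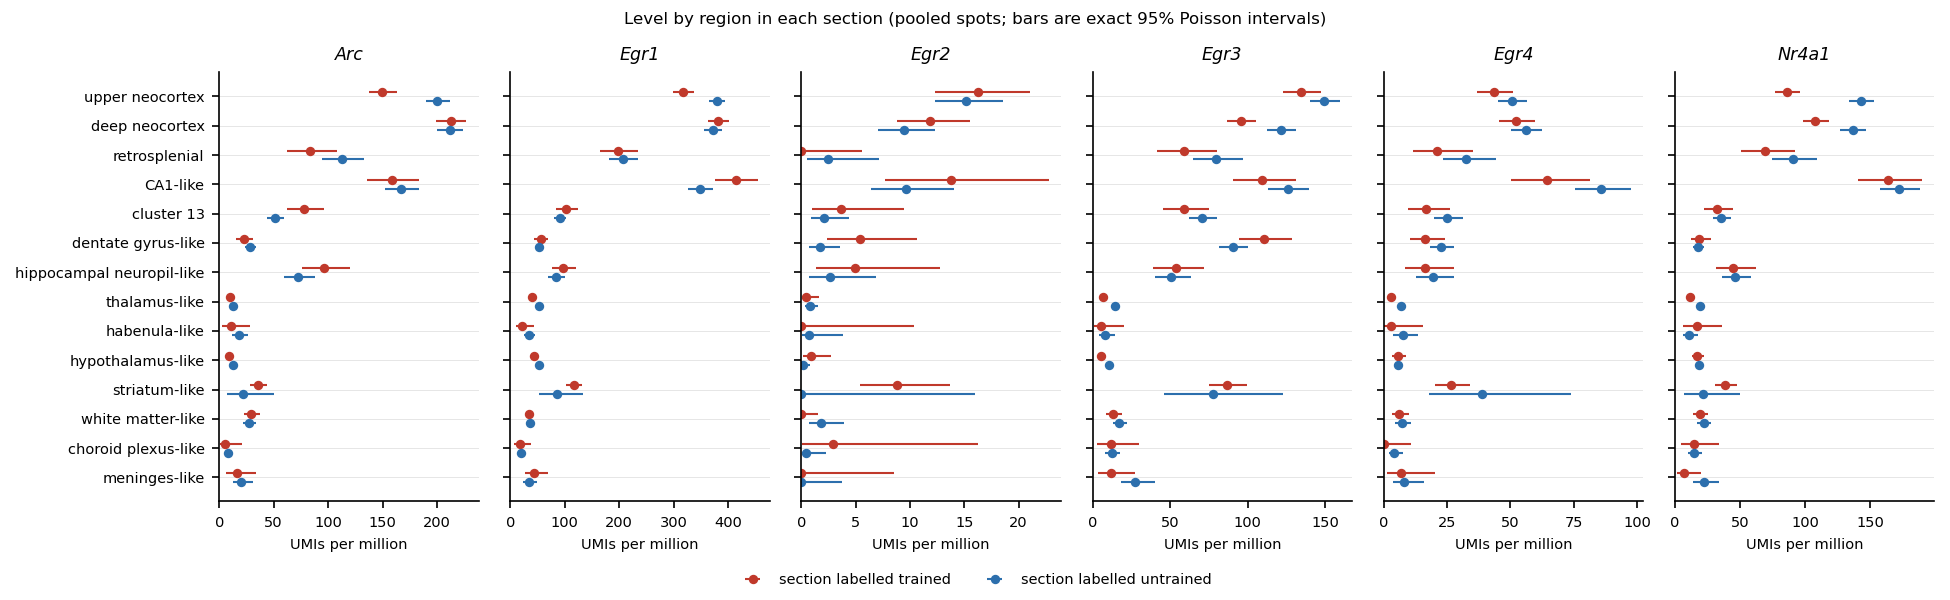
Level of each gene by region in CPM, with 1 point per region and section and bars for the exact 95% Poisson interval. The deep cortical, upper cortical and CA1 points stand highest for Arc, Egr1, Egr4 and Nr4a1. For Egr3 the dentate gyrus and the striatum stand near them in the trained section, and the dentate gyrus lies below them in the untrained section.

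For Arc the trained order began with deep cortex, followed by CA1 and upper cortex, which overlapped, and then neuropil, retrosplenial cortex and cluster 13, which also overlapped. The untrained order began with deep and upper cortex, which overlapped, followed by CA1, retrosplenial cortex, neuropil and cluster 13, each apart from the next. For Egr3 upper cortex came first in both, apart from the next region only in the untrained section. The Egr3 interval of the dentate gyrus overlapped those of CA1 and deep cortex in the trained section and lay below both in the untrained section. For Egr2 upper cortex, CA1 and deep cortex led in both sections with overlapping intervals, at 16.2, 13.8 and 11.8 in the trained and 15.2, 9.67 and 9.42 in the untrained section.

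The share of spots with at least 1 UMI depended on depth. Arc was found in 72.4% (68.9% to 75.7%) of trained and 86.9% (84.2% to 89.3%) of untrained neocortical spots, at median depths of 10872.5 and 15501 UMIs. In white matter, at 3238 and 6498 UMIs, it was found in 9.86% and 15.7% of spots, and in choroid plexus, at 8683.5 and 39385 UMIs, in 5.88% and 27.7%. With every spot thinned to 1000 UMIs, which 709 of 710 and 711 of 711 neocortical and 604 of 639 and 464 of 465 white matter-like spots allowed, the neocortical shares were 14.8% and 16.5%, those of white matter 2.62% and 2.47% and those of choroid plexus 0.54% and 1.30%. The thinned thalamic shares of Arc, 1.04% and 1.28%, were under those of white matter. In the hippocampus Arc was found in 210 of the 595 trained and 360 of the 585 untrained spots. Egr1 was found in 43.4% of the trained hippocampal spots (258 of 595) and 69.4% of the untrained ones (406 of 585), at median depths of 5303 and 16179 UMIs, and thinned to 1000 UMIs in 10.9% and 11.3%. At 1000 UMIs it was found in 26.7% and 27.3% of neocortical spots, 28.6% and 24.8% of CA1-like spots and 2.61% and 2.92% of white matter-like spots.

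Across the depth of the cortex the genes differed in which cluster was highest. Outside clusters 18 and 28, described below, the clusters from the surface inwards were 12, 7, 10 and 8. Cluster 12, led by Reln and Vip, scored higher for meningeal than for cortical markers and was shallow, at 4528 and 8968.5 UMIs per spot. Clusters 7 and 10 carried upper and deep cortical markers, and cluster 8 was led by deep layer genes such as Rprm and Ccn2. Arc rose from 120 (93.1 to 153) in cluster 12 to 267 (246 to 290) in cluster 8 in the trained section, with 162 and 157 between them. In the untrained section it was at 136 (114 to 161) in cluster 12, 221 (207 to 235) in cluster 7, 167 (153 to 183) in cluster 10 and 263 (244 to 284) in cluster 8. Egr1 followed the same course, with 204, 339, 336 and 427 in the trained section and 179, 422 (404 to 441), 311 and 442 (417 to 468) in the untrained section, where the intervals of clusters 7 and 8 overlapped.

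Among these 4 clusters Egr3 and Egr4 peaked elsewhere. Egr3 was highest in cluster 7, at 149 (134 to 165) and 154 (143 to 166), and at 93.6 (81.1 to 108) and 124 (111 to 138) in cluster 8. Egr4 was highest in cluster 10, at 63.4 (53.1 to 75.1) and 71.5 (62.3 to 81.7), and at 41.7 (33.4 to 51.3) and 38.2 (31.0 to 46.5) in cluster 8, with intervals apart in both sections, while cluster 7, at 45.7 (37.7 to 55.0) and 58.3 (51.6 to 65.8), overlapped cluster 10. Nr4a1 had no single peak below the surface, with 90.3, 103 and 113 in clusters 7, 10 and 8 of the trained section and 151, 128 and 147 in the untrained section. Egr2 was at 16.7 and 16.8 in cluster 7 and at 6.20 and 8.57 in cluster 10.

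**Figure D3:**
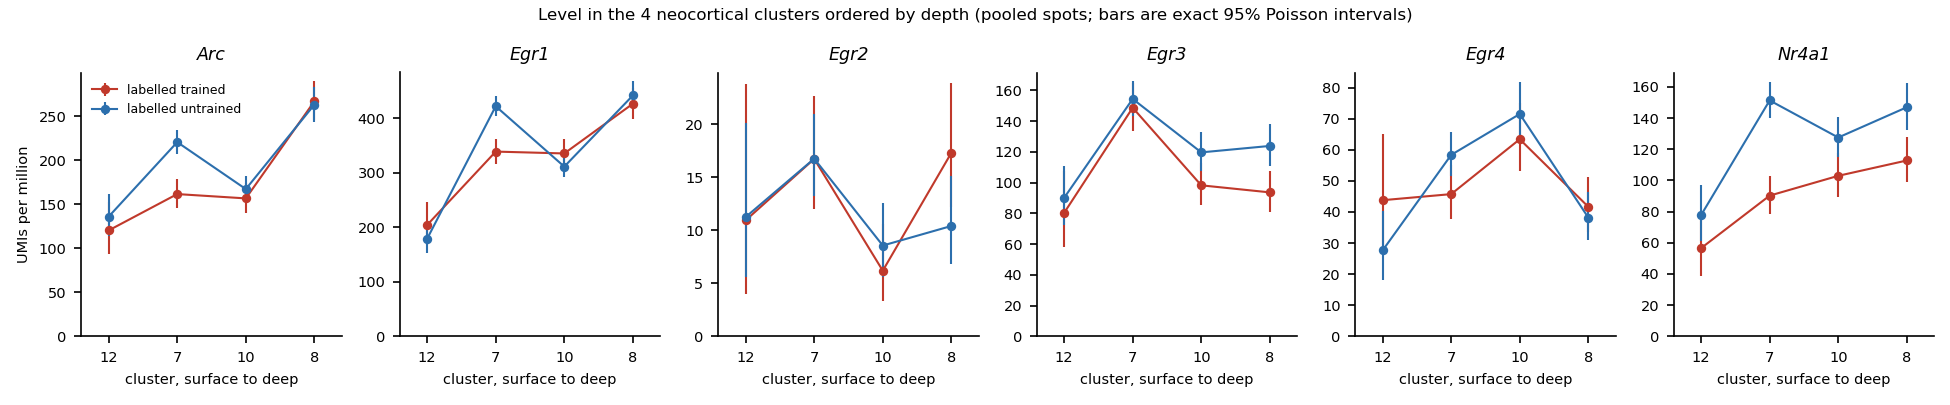
Level of each gene in CPM in 4 of the 6 cortical clusters, leaving out clusters 18 and 28, from surface (12) to deep (8), with bars for the exact 95% Poisson interval, for each section. Among these 4, Arc is highest in cluster 8, Egr3 in cluster 7 and Egr4 in cluster 10, whose intervals overlap those of cluster 7, and for Egr1 clusters 7 and 8 overlap in the untrained section.

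The genes also varied along the cortical sheet. Counted by distance from the midline, Egr4 in upper cortex was at 22.7 (12.1 to 38.8) and 27.9 (19.2 to 39.2) within 1 mm, at 59.7 (43.1 to 80.7) and 70.8 (58.6 to 84.9) from 1 to 2 mm and at 43.9 (35.6 to 53.5) and 48.8 (41.7 to 56.7) from 2 to 4 mm. Egr2 followed, at 5.24 (1.08 to 15.3) and 8.46 (4.06 to 15.6) within 1 mm, 31.3 (19.6 to 47.4) and 23.6 (16.8 to 32.3) from 1 to 2 mm and 14.3 (9.80 to 20.2) and 13.5 (9.91 to 17.9) beyond. Both genes thus had their lowest upper cortical level nearest the midline and their highest from 1 to 2 mm, in both sections. The interval from 1 to 2 mm was apart from that within 1 mm for both genes in both sections, although Egr2 rests on 3 and 10 UMIs within 1 mm. It overlapped the interval from 2 to 4 mm except for Egr4 in the untrained section, so the peak was otherwise not resolved. Arc in upper cortex was lowest near the midline as well, at 107 (81.5 to 137) and 142 (122 to 165), against 156 (140 to 174) and 230 (215 to 247) beyond 2 mm.

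The retrosplenial-like spots (80 and 82), a midline cortex that links the hippocampus with spatial behaviour, were below the pooled upper and deep cortex for Arc and Egr1. Arc was at 83.0 (62.5 to 108) and 112 (94.3 to 133) and Egr1 at 198 (165 to 235) and 207 (182 to 234) there. Egr4 was at 21.1 (11.6 to 35.4) and 32.6 (23.3 to 44.3), with intervals that overlapped those of upper cortex within 1 mm of the midline. Egr2 had 0 UMIs in the trained section, which allows up to 4.53 CPM with a floor of 3 counts, and was at 2.44 in the untrained section. Cluster 28, led by Vip, Lamp5 and the retrosplenial marker Tshz2 and counted as upper cortex, had Egr1 at 336 and 380 and Egr2 at 19.5 and 10.7. Egr3 was at 125 (96.2 to 159) and 197 (167 to 232) in cluster 28, in the untrained section above the 154 of cluster 7.

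Set against Egr1 in the same spots, each gene is measured with its own depth on both sides. Per 100 Egr1 UMIs, Egr3 had 199 UMIs (152 to 262) in the trained and 172 (145 to 205) in the untrained dentate gyrus, against 26.4 and 36.1 in CA1 and 42.4 and 39.4 in upper cortex. Striatum followed with 74.5 and 90.0, and hypothalamus was lowest of the large regions with 12.9 and 19.5. The interval of the dentate gyrus was apart from those of CA1 and cortex in both sections, and from that of striatum in the trained section only.

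Arc per 100 Egr1 UMIs was at 47.2 and 52.8 in upper cortex, 55.7 and 57.0 in deep cortex and 38.2 (31.9 to 45.7) and 48.0 (42.9 to 53.7) in CA1. It was at 98.7 (71.1 to 137) and 86.5 (66.3 to 113) in hippocampal neuropil, 87.3 (62.3 to 122) and 73.4 (55.4 to 97.0) in white matter and 75.9 (56.6 to 102) and 56.3 (46.4 to 68.2) in cluster 13, and these 3 overlapped in both sections. The interval of deep cortex overlapped that of cluster 13 in both sections and that of white matter in the untrained section. It was lower in thalamus, at 24.7 (17.4 to 34.6) and 23.9 (19.5 to 29.05), and in hypothalamus, at 20.7 and 24.5. The intervals of neuropil and CA1 were apart in both sections, and so were those of neuropil and thalamus. Egr4 stood at 29.3 and 43.4 in the dentate gyrus, 15.6 and 24.7 in CA1 and 13.6 and 14.3 in neocortex, and Nr4a1 at 39.6 and 49.4 in CA1 and 28.1 and 37.6 in neocortex.

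**Figure D4:**
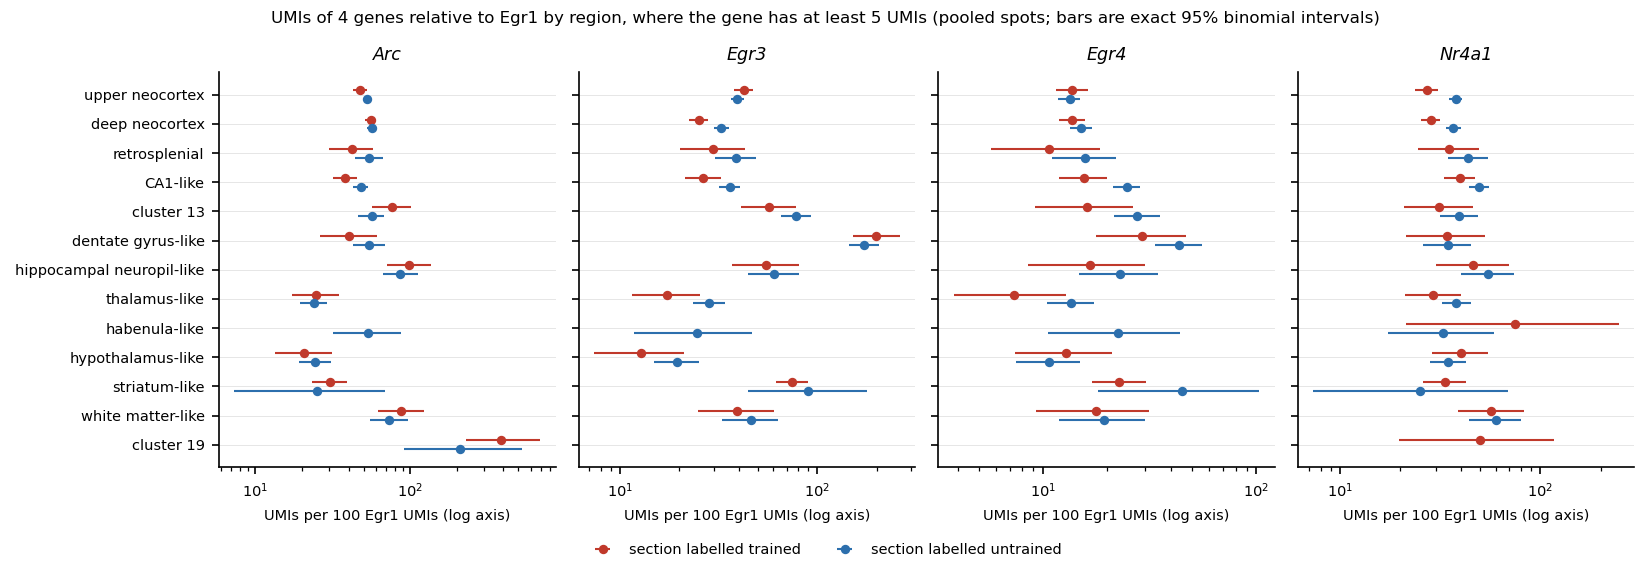
UMIs of Arc, Egr3, Egr4 and Nr4a1 per 100 Egr1 UMIs by region on a log axis, with bars for the exact 95% binomial interval, where the gene has at least 5 UMIs. Egr3 stands at 199 and 172 in the dentate gyrus, and Arc at 389 and 211 in cluster 19.

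A small group of spots beside the thalamus held Arc with little of the other 5 genes, and was chosen after its values were seen. Cluster 19 (126 and 29 spots) stayed unnamed, and its leading genes were Six3, Pvalb, Esrrg, Gad1 and Isl1, of which Gad1 makes the transmitter GABA. Arc was at 72.9 (56.8 to 92.1) from 70 UMIs in 48 of the 126 trained spots, and at 47.6 (28.7 to 74.4) from 19 UMIs in 11 of the 29 untrained spots. Egr1 was at 18.7 (11.1 to 29.6) and 22.6 (10.3 to 42.8), Nr4a1 at 9.37 and 10.03, Egr3 at 3.12 and 5.01 and Egr4 at 1.04 and 5.01. This is 389 Arc UMIs per 100 Egr1 UMIs (229 to 694) in the trained and 211 (91.0 to 530) in the untrained section, where the interval overlapped that of hippocampal neuropil. Pooled, each named region had fewer than 100, and the white matter clusters 0 and 5 had 133 (59.2 to 309) and 123 (67.3 to 226) in the trained section. In the trained section Arc was high on both sides of the midline, at 94.4 on the left and 63.7 on the right. In the untrained section 18 of the 19 UMIs lay on the right, at 62.4. Cluster 26 (0 and 123 spots, led by Vgll3, Trhr and Crym) was found in the untrained section only, with Egr3 at 53.1, Egr1 at 60.8 and Arc at 14.2.

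Between the whole sections none of the 6 genes differed by 1.5-fold, whereas 12.8% of 11460 genes did, 8.06% higher and 4.75% lower in the section labelled trained. Arc had a log2 ratio of trained over untrained of 0.14 (0.07 to 0.22), Egr1 one of 0.17 (0.11 to 0.22) and Egr2 one of 0.54 (0.25 to 0.83). The ratio was -0.05 (-0.13 to 0.04) in Egr3, -0.12 (-0.26 to 0.01) in Egr4 and -0.18 (-0.27 to -0.09) in Nr4a1. The median of all genes was 0.07 with an SD of 0.43. The Arc ratio turned to -0.13 with each spot weighted equally and to -0.10 when regions were given equal shares in both sections, and the Egr1 ratio turned to -0.056 with equal shares of regions.

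Within the neocortex, Arc, Egr1, Egr3 and Nr4a1 were lower in the section labelled trained, with intervals below 0. Of all genes 38.3% had a ratio below 0 there. Arc had a log2 ratio of -0.16 (-0.25 to -0.07), Egr1 of -0.08 (-0.15 to -0.01), Egr3 of -0.26 (-0.38 to -0.15), Egr4 of -0.15 (-0.33 to 0.03) and Nr4a1 of -0.50 (-0.62 to -0.38). Egr2 was at 0.14 (-0.23 to 0.51). None passed 1.5-fold, as 7.54% of all genes did upwards and 3.22% downwards, and the median of all genes in neocortex was 0.10. In upper cortex Nr4a1 was at 86.1 (76.6 to 96.3) against 143 (134 to 153), a log2 ratio of -0.73 (-0.93 to -0.54), the one gene past the fold there (8.91% of all genes were higher and 3.78% lower by it). Arc in upper cortex was at 150 (137 to 163) against 200 (189 to 212), a log2 ratio of -0.42 (-0.57 to -0.27), and in deep cortex at 213 against 212, a log2 ratio of 0.01.

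In the hippocampus Egr1 was somewhat higher in the section labelled trained, with a log2 ratio of 0.23 (0.10 to 0.35), and Egr4 lower at -0.44 (-0.74 to -0.15). Arc was at 0.16 (-0.02 to 0.33), Egr3 at -0.01 and Nr4a1 at -0.03. The parts of the hippocampus differed for Arc, which was at 0.61 (0.22 to 0.99) in cluster 13 from 85 and 169 UMIs, at 0.40 (-0.04 to 0.83) in neuropil, at -0.08 (-0.34 to 0.17) in CA1 and at -0.33 (-0.95 to 0.22) in the dentate gyrus. Egr2 was at 0.85 (0.14 to 1.54), past 1.5-fold, from 31 and 45 UMIs, below the minimum of 100 used for counts over genes. None of the other 5 passed the fold (9.72% of all genes were higher and 5.95% lower by it), and the median of all genes was 0.07. The sides of one section also differed, since trained Arc was at 96.3 on the left and 77.1 on the right and trained Egr1 at 123 and 177. In thalamus Egr3 fell by 1.04 (-1.66 to -0.49) and Nr4a1 by 0.72 (-1.20 to -0.29) on the log2 scale in the section labelled trained, 2 of the 4 genes with at least 100 UMIs there (5.98% of all genes were lower by 1.5-fold). Egr1 was at -0.35 (-0.61 to -0.11) and Arc at -0.29 (-0.84 to 0.20). Egr4 was at -1.20 (-2.23 to -0.38) from 13 and 71 UMIs, below the minimum, as was Egr3 in the hypothalamus at -0.87 (-1.74 to -0.14) from 18 and 71. The thalamic Egr3 and Nr4a1 ratios rest on 31 and 52 UMIs in the trained thalamus. The sections held different thalamic clusters, with 327 and 104 spots of cluster 3, 150 and 274 of cluster 4, 219 and 102 of cluster 9 and 21 and 166 of cluster 14. Egr3 was at 6.80 (3.96 to 10.9) and 15.998 (10.5 to 23.3) in cluster 3, at 3.97 (1.08 to 10.2) and 15.3 (11.9 to 19.3) in cluster 4 and at 13.4 (6.42 to 24.6) and 9.20 (3.97 to 18.1) in cluster 9. The sections thus did not stand in the same order in each of these clusters, although the intervals overlapped in clusters 3 and 9. Cluster 14, with 21 trained spots, is left out here.

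**Figure D5:**
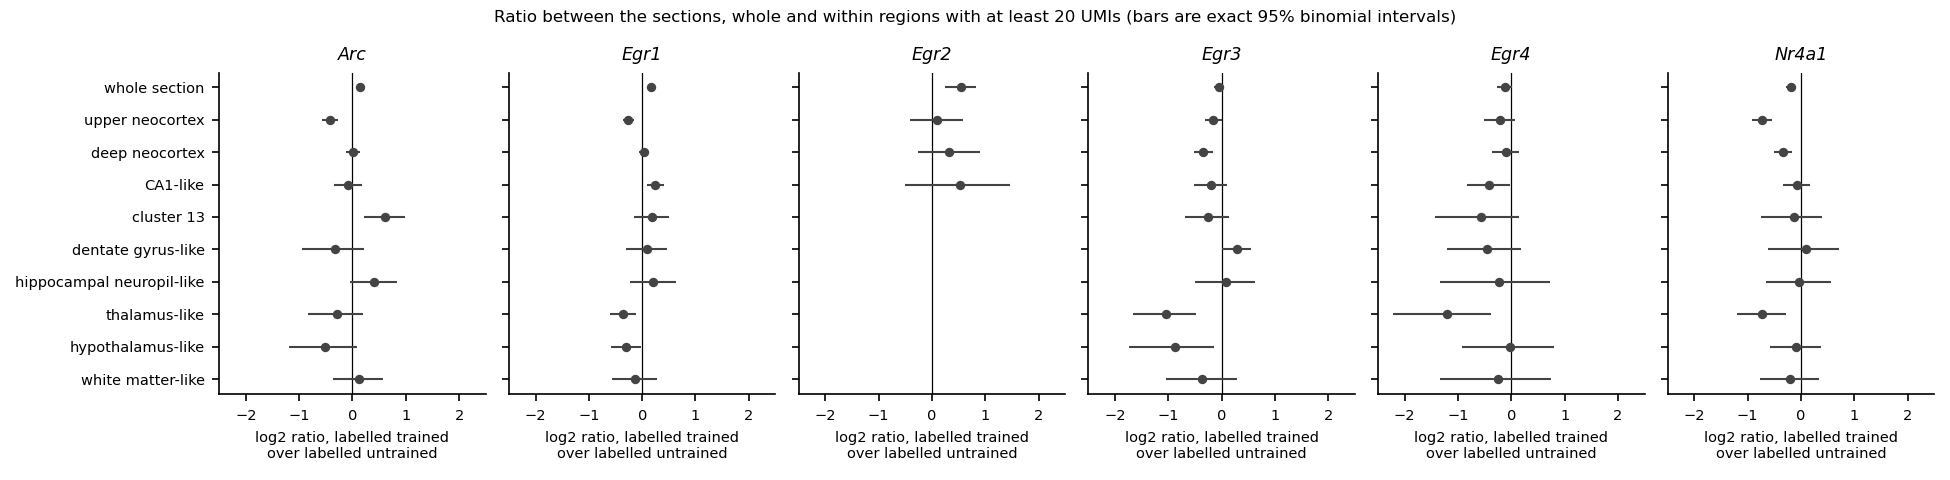
Log2 ratio of CPM, section labelled trained over section labelled untrained, for the whole section and for regions with at least 20 UMIs, with bars for the exact 95% binomial interval. The whole-section points lie between -0.18 and 0.54, and Nr4a1 in upper cortex lies at -0.73.

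Other activity-regulated genes were mixed between the sections. Of 44 further activity-regulated genes 34 had at least 400 UMIs, and 5 were at least 1.5-fold higher and 0 lower in the section labelled trained, where 8.06% of all genes were higher and 4.75% lower, with a median log2 ratio of 0.13 against 0.07 for all genes. The highest were Sgk1, a kinase also induced by glucocorticoids, at 1.21 (1.16 to 1.25), Tiparp at 1.20 (1.04 to 1.37) and Arl4d at 0.76 (0.64 to 0.89). The lowest were Junb, an AP-1 subunit, at -0.58 (-0.70 to -0.47), Vgf at -0.34 and Scg2 at -0.20. Sgk1 was below the rest of the section in neocortex, with log2 values of -1.13 and -0.47, and above it in white matter, with 2.51 and 1.82, of which the sections held 639 and 465 spots. In neocortex 13 of 31 listed genes in the trained and 16 of 34 in the untrained section were at least 1.5-fold above the rest (8.19% and 6.51% of all genes), with medians of 0.42 and 0.55, and in white matter 22 of 31 and 22 of 34 were below it (29.9% and 26.0% of all genes).

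None of the 11 regulators upstream of these genes passed 1.5-fold between the sections, with a median log2 ratio of -0.02. Srf was at 0.53 (0.25 to 0.81), Mef2c, a factor of cortical excitatory neurons, at 0.25, and the CREB coactivator Crtc1 at -0.44 (-0.54 to -0.34). Mef2c stood above the rest in neocortex, with log2 values of 2.63 and 2.22, and below it in CA1, with -1.81 and -1.17. Of the 5 partners of the Egr and Nr4a proteins, 1 was higher (8.06% of all genes), the retinoid receptor Rxrg at 0.76. Rxrg stood above the rest in striatum by 2.91 and 3.13 on the log2 scale, and the part of the 226 and 26 striatum-like spots in its ratio was not tested. The Egr corepressor Nab2 was at -0.52 (-0.68 to -0.36) and stood above the rest in neocortex by 1.04 and 0.72 on the log2 scale. Of the 7 genes for Arc partners and turnover, 1 was lower (4.75% of all genes), the kinase subunit Camk2b at -0.90 (-0.94 to -0.86), and Dnm2, a dynamin of endocytosis, was at 0.40.

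The genes most like each member in regional pattern were found by Pearson's r of log2 levels over 28 clusters among 8412 genes, as a description, since the clusters of a section share its library, depth and base composition. Arc was most like Vxn (r = 0.90 and 0.96), the synaptic scaffold gene Homer1 (0.89 and 0.89) and Dkk3 (0.85 and 0.86). Egr1 was most like Homer1 (0.90 and 0.92), Egr4 (0.90 and 0.89) and Nr4a1 (0.88 and 0.96). Egr2 was most like Homer1 (0.84 and 0.82), Egr1 (0.77 and 0.87) and Egr4 (0.77 and 0.76). Egr3 went with other genes, Itpka (0.97 and 0.95), a kinase of dendritic spines, the potassium channel gene Kcnh3 (0.95 and 0.96) and Rprml (0.91 and 0.93). Egr4 was most like Junb (0.92 and 0.91), Bcl11a (0.90 and 0.90) and Egr1. Nr4a1 was most like Egr1, Rasl11b (0.85 and 0.87) and Fhl2 (0.84 and 0.86). Between members r ran from 0.65 (Egr2 and Nr4a1) to 0.90 (Egr1 and Egr4) in the trained and from 0.76 (Egr2 and Egr4) to 0.96 (Egr1 and Nr4a1) in the untrained section.

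Arc and Egr1 were also set against each other spot by spot. In neocortex Egr1 was at 356 CPM in the 514 trained spots with an Arc UMI and at 263 in the 196 without, and at 373 in 618 and 197 in 93 untrained spots. With spots compared only within groups of like depth and region, the ratios were 1.17 and 1.41 in neocortex and 1.07 and 1.40 in the hippocampus. With the genes exchanged, the ratio of Arc in spots with an Egr1 UMI over spots without was 1.41 and 1.02 in neocortex and 1.17 and 1.25 in the hippocampus, where 48 untrained neocortical spots had no Egr1 UMI.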

How the data were processed

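The authors aligned the reads of both sections to mm10 with Space Ranger 2.0.0 and deposited a filtered matrix of raw UMI counts per gene and spot, spot positions and a Moran's I score per gene. The deposited p-values and image scale factors were not used. Spots under 500 UMIs (194 and 114) were left out of regions. Spots of both sections were clustered together on 1852 variable genes (30 principal components, 15 neighbours, Leiden resolution 1.5; scikit-learn 1.9.0, igraph 0.11.9, leidenalg 0.10.2), leaving out the 6 genes and the activity-regulated list. Clusters were named after the marker set whose mean z score was over 0.4 and within 0.2 of the highest, with at least 3 markers at 5 CPM and the most markers among the 10 leading genes, thresholds set after the maps had been seen. Counts were pooled per region and divided by the region's total (scipy 1.17.1, pandas 2.3.3, numpy 2.4.6 in Python 3.11.15; figures with matplotlib 3.10.9). Levels have exact Poisson, shares Clopper-Pearson and ratios exact binomial intervals, at 95%. Log2 ratios carry a pseudocount of 0.5 UMI, and shares of all genes past 1.5-fold use genes with at least 400 UMIs (100 within regions between sections). The scripts were tested on simulated data.

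The members and lists were chosen with earlier results of these data known. Named genes are the 6 members, the 3 genes most like each, and the 3 highest and 3 lowest of each further list, of which some are given here. Alternatives were other totals, spot weights, depth minimums, sides, region definitions, pseudocounts and gene minimums. The alternatives for the ratio to Egr1 were chosen after seeing the data. The 2 sections are the whole series, with 1 mouse per group, so no test between groups was made. Depth was 29515831 and 59029131 UMIs.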

Additional observations from a re-analysis of the deposited data

How the results depend on the processing

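No paired analysis was possible because each group has 1 section and the groups share fewer than 2 replicate numbers. With each spot weighted equally the log2 ratio was -0.13 for Arc, which reversed, 0.086 for Egr1, -0.28 for Egr3, -0.41 for Egr4 and -0.39 for Nr4a1. Standardised over the regions it was -0.10 for Arc and -0.056 for Egr1, both reversed, -0.21 for Egr3, -0.33 for Egr4 and -0.34 for Nr4a1. On the left side only it was 0.42 for Arc, 0.40 for Egr1, 0.046 for Egr4 and -0.036 for Nr4a1. On the right side only it was -0.0023 for Arc, which reversed, and 0.050 for Egr1. The Egr1 ratio was 0.10 without mitochondrially encoded genes and 0.092 with the median ratio of all genes set to 0. The cause was not tested.

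Of 222 counts of members past 1.5-fold by region under an alternative, 212 stayed within 1.5 times. The others follow. In the dentate gyrus 2 genes were higher on the trained left side. In the trained striatum 1 was higher on the right. In the untrained striatum 2 were higher with spots weighted equally, 0 on the right, from marker scores and at resolution 1, and 0 were lower from marker scores. In the trained hippocampus 4 were higher with equal weights and from marker scores and 2 on the left. These counts under alternatives have no share of all genes beside them. Single log2 values over the rest moved more, 38 of 96 beyond their interval with equal weights, 37 of 90 on the left, 29 of 96 from marker scores and 16 of 96 on the right. Those that reversed were 0.10 for trained striatal Egr1 with equal weights, 0.12 for untrained striatal Arc from marker scores, 0.052 for Egr2 in untrained white matter on the left, -0.052 and -0.038 for trained and untrained hippocampal Arc on the right and -0.10 for trained hippocampal Egr1 on the left. Of the activity-regulated genes 2 were higher at 2-fold, and 1 was lower with a minimum of 100 UMIs, without mitochondrially encoded genes or with the median set to 0. For UMIs per 100 Egr1 UMIs, with alternatives chosen after seeing the data, 66 of 82 values stayed within their interval on the left, 86 of 87 on the right and 76 of 83 from marker scores. Under regions from marker scores 103 of 156 levels stayed within theirs.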
